A study of Homo sapiens with 9 samples.

Results

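The 33 genes described here encode the human Mediator complex, with the paralogous subunits of its kinase module. They were taken by symbol from a fixed list, and all 33 were found among the 36601 genes of the count matrices. RNA of single U2OS cells, a human osteosarcoma line, was read from the 3′ ends of transcripts, and each molecule was counted by its unique molecular identifier (UMI). The largest RNA polymerase II subunit, RPB1, carried either HaloTag, a modified enzyme that forms a covalent bond with dye ligands, or Dendra2, a photoconvertible fluorescent protein, and its C-terminal domain (CTD) had 25, 52 or 70 repeats. The genotypes are HaloTag-RPB1-25R, HaloTag-RPB1-52R and HaloTag-RPB1-70R, and Dendra2-RPB1-25R, Dendra2-RPB1-52R and Dendra2-RPB1-70R, of which 52 repeats is the length of the human protein. All 6 lines received α-amanitin, an RNA polymerase II inhibitor, at 1 µg/ml for 6 days, so no group is untreated, and the labels give no line without a tag. Each genotype is 1 library, and the labels do not say whether a line is a single clone. The series asks how the tag and the CTD length affect transcription, and here the question is put to the genes for the complex that the CTD binds.

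Mediator is a large coactivator that carries signals from enhancer-bound transcription factors to RNA polymerase II at promoters. Its head and middle modules contact the polymerase and its CTD, the scaffold MED14 joins the modules, and the tail receives many activators. A separable kinase module, with CDK8 or its paralogue CDK19, cyclin C, MED12 or MED12L and MED13 or MED13L, binds the core complex reversibly and blocks its contact with the polymerase.

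The libraries held 2718 to 4677 kept cells and 52553686 to 58442223 UMIs each. Median depth was 10812 to 16020 UMIs per cell in HaloTag libraries and 15770 to 18739 in Dendra2 libraries, and median mitochondrial shares were 6.85% to 9.08% and 5.41% to 6.13%. The HaloTag libraries were sequenced in 2 runs each in February and March and the Dendra2 libraries in June, so tag and sequencing campaign cannot be told apart. Every library held UMIs of its own labelled tag, 535 to 699 for HaloTag and 578 to 821 for Dendra2. Pairs of libraries shared 0 to 7 cell barcodes. The labels call the cells epithelial, but only 3 of 10 epithelial markers reached 1 CPM, the library-scaled count defined by edgeR, in every library and 4 stayed under 1 CPM in every library. The keratins KRT18 and KRT8 were high, at 741.0 to 1250.2 and 152.2 to 565.3 CPM, whereas CDH1, which encodes E-cadherin, stayed at 0.11 to 0.42 CPM, and 9 of 12 mesenchymal and osteoblast markers reached 1 CPM in every library. None of 4 leukocyte and blood markers did.

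All 33 genes passed the filter on low counts that left 18069 genes, so no member is missing from the tests below. Their median level was 28.5 CPM, with CPM scaled by TMM factors, against 7.68 CPM for all genes tested. At the top stood MED10, a middle subunit, with a mean of 146.3 CPM over the 6 libraries, followed by MED8, a head subunit, with 83.5 CPM, and MED6, another head subunit, with 72.5 CPM. At the bottom stood MED12L with 1.96 CPM and MED26, a middle subunit that recruits elongation factors, with 4.98 CPM. Because each molecule was counted once at its 3′ end, these levels were not divided by transcript length. The subunits of the complex were therefore spread over a wide range of RNA levels, and 26 of the 33 averaged at least 10 CPM.

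**Figure D1:**
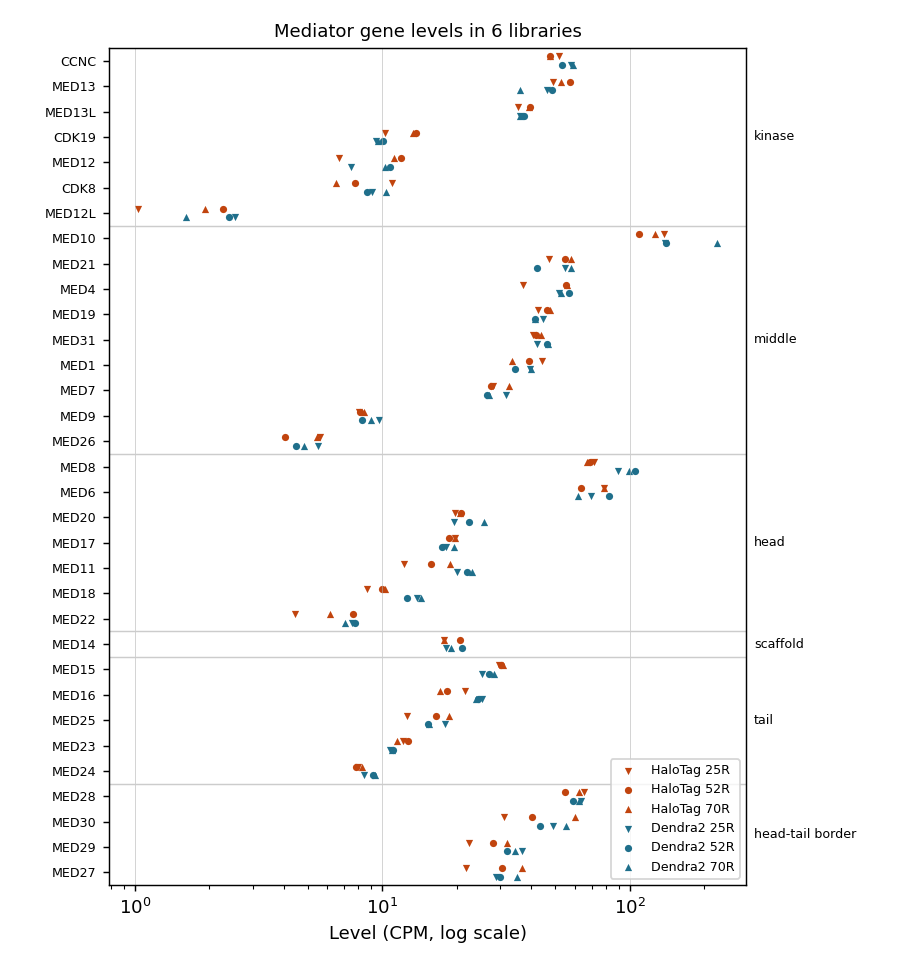
Level of each of the 33 Mediator genes (rows, grouped by module) in CPM on a log axis, with 1 point per library. MED10 lies highest at 109.1 to 225.5 CPM and MED12L lowest at 1.03 to 2.53 CPM, and in most rows the 6 points lie close together.

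Most members varied less than 1.5-fold between libraries. The ratio of the highest to the lowest library was under 1.5 for 20 of the 33 genes and reached 2 for 2 of them, MED10 at 2.07 and MED12L at 2.46. This ratio was not computed for all genes tested, so these counts have no background. The median coefficient of variation over the 6 libraries was 12.9%, against 16.6% for the 6254 tested genes with means between 8.51 and 59.5 CPM, a range that leaves out the most and least abundant members. The smallest ratios were 1.12 for MED13L, 1.14 for MED17, a head subunit at the centre of that module, and 1.15 for MED19, a middle subunit. MED17 had 19.7, 18.5 and 19.6 CPM in HaloTag libraries with 25, 52 and 70 repeats and 18.1, 17.4 and 19.4 CPM in the Dendra2 libraries. Exons of MED17 overlap those of TAF1D on the opposite strand, which averaged 247.6 CPM. Exons of MED31 likewise overlap those of TXNDC17, at 257.4 CPM. The counts of both members may depend on how reads were assigned to strands. Whether either overlap lies at the 3′ end, where molecules were counted, was not examined.

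Together the 33 genes took 0.103%, 0.108% and 0.113% of all UMIs in HaloTag libraries with 25, 52 and 70 repeats, and 0.105%, 0.108% and 0.120% in Dendra2 libraries. The share was thus highest at 70 repeats under either tag. A median cell held 16, 14 and 12 UMIs of the whole set in the HaloTag libraries and 16, 19 and 22 in the Dendra2 libraries, in the order of the median depths. Between 2 and 10 kept cells per library had no UMI of any member. With every cell thinned to 5000 UMIs, which left out 34 to 217 shallower cells per library, MED10 had a UMI in 42.6% to 64.3% of cells and MED12L in 0.473% to 1.27%, and without thinning in 70.8% to 92.7% and 1.69% to 4.37%. No cell type in these libraries should lack Mediator, so the share that free RNA would give was not measured.

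Between the tags, the largest differences among members of at least 10 CPM were negative and were those of the head genes MED8, MED11 and MED18, the middle gene MED10 and the tail gene MED16. None of the 33 passed the test over all genes (edgeR quasi-likelihood, adjusted p under 0.05), in a comparison in which 0.327% of genes did, 59 of 18069. At an unadjusted p under 0.05 there were 4 members, MED8, MED11, MED16 and MED18, all lower in HaloTag libraries. That is 12.1% of the members, against 19.6% of all genes in either direction and 9.2% in that direction, while 0 members were higher, against 10.4% of genes. DESeq2, run on the same counts, called MED8 alone, 1 of 33 members, against 6.25% of genes.

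MED8, a head subunit whose yeast counterpart tethers Med18 and Med20, had 71.4, 69.3 and 67.1 CPM in HaloTag libraries with 25, 52 and 70 repeats and 89.7, 104.5 and 99.0 CPM in the Dendra2 libraries. All 3 HaloTag values lay below all 3 Dendra2 values. The log2 difference was -0.49 ± 0.13 (SE; edgeR, adjusted p = 0.134, and 0.0298 with DESeq2). MED18, which with MED20 forms the movable jaw of the head, had 8.67, 9.93 and 10.3 CPM in HaloTag libraries and 13.8, 12.6 and 14.3 CPM in Dendra2 libraries. Its groups did not overlap either, at a log2 difference of -0.50 ± 0.15 (SE; edgeR, adjusted p = 0.169). MED11, a small head subunit, had 12.2, 15.7 and 18.8 CPM in HaloTag libraries and 20.04, 22.03 and 22.96 CPM in Dendra2 libraries. Its groups were separate too, with a log2 difference of -0.50 ± 0.15 (SE; edgeR, adjusted p = 0.163).

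MED16, a tail subunit, had 21.5, 18.3 and 17.2 CPM in HaloTag libraries and 25.4, 24.3 and 24.0 CPM in Dendra2 libraries. Its log2 difference was -0.38 ± 0.13 (SE; edgeR, adjusted p = 0.207) and its groups did not overlap. MED10, the most abundant member, had 138.0, 109.1 and 126.1 CPM in HaloTag libraries and 138.3, 140.5 and 225.5 CPM in Dendra2 libraries. The HaloTag values again all lay lower, but at 25 repeats by a log2 difference of only -0.0035, and the single Dendra2 library with 70 repeats stood far above the rest. The fitted log2 difference of MED10 was -0.40 ± 0.18 (SE; edgeR, adjusted p = 0.278).

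In the other direction the largest differences were those of CDK19 and MED13, both of the kinase module. CDK19 had 10.2, 13.6 and 13.3 CPM in HaloTag libraries and 9.41, 10.0 and 9.58 CPM in Dendra2 libraries, a log2 difference of 0.35 ± 0.16 (SE; edgeR, adjusted p = 0.288). MED13, the subunit through which the kinase module binds the core, had 48.8, 57.5 and 52.8 CPM in HaloTag libraries and 46.4, 48.4 and 36.15 CPM in Dendra2 libraries, a log2 difference of 0.29 ± 0.14 (SE; edgeR, adjusted p = 0.317). The groups of both genes were separate, though neither gene passed the test. Smaller positive differences followed for MED15, a tail subunit bound by many activators, MED23, a tail subunit that receives growth factor signals, and MED19, at log2 values of 0.17, 0.15 and 0.10 (SE 0.13, 0.14 and 0.13). MED15 had 29.5, 30.1 and 30.6 CPM in HaloTag libraries and 25.4, 26.9 and 28.3 CPM in Dendra2 libraries, and MED23 had 12.1, 12.7 and 11.5 CPM in HaloTag libraries and 10.8, 11.0 and 10.9 CPM in Dendra2 libraries. MED19 overlapped between the tags.

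Counted over all members, 11 of 33 had groups that did not overlap, 33.3% against 24.3% of all genes. Of these, 7 were lower in HaloTag libraries, MED8, MED10, MED11, MED16, MED18, MED24 and CCNC, which is 21.2% against 11.6% of genes, and 4 were higher, MED13, MED15, MED23 and CDK19, which is 12.1% against 12.7%. The median log2 difference of the 33 was -0.10, against 0.03 over all genes tested, and 20 members lay below 0, 60.6% against 47.5% of genes. With library totals in place of TMM factors the member median was -0.02 and 17 members lay below 0, while the median of all genes was 0.11. By module, the median was -0.33 for the 7 head genes, -0.16 for the 4 genes at the border of head and tail, -0.04 for the 5 tail genes, 0.02 for the 9 middle genes and 0.03 for the 7 kinase module genes. The head genes were not uniform, since MED6 and MED17 had log2 differences of 0.05 and 0.07. MED14, the scaffold, had 17.7, 20.5 and 17.8 CPM in HaloTag libraries and 18.0, 21.0 and 18.9 CPM in Dendra2 libraries, a log2 difference of -0.05 ± 0.13 (SE; edgeR, adjusted p = 0.858) that turned positive, to 0.04, with library totals.

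**Figure D2:**
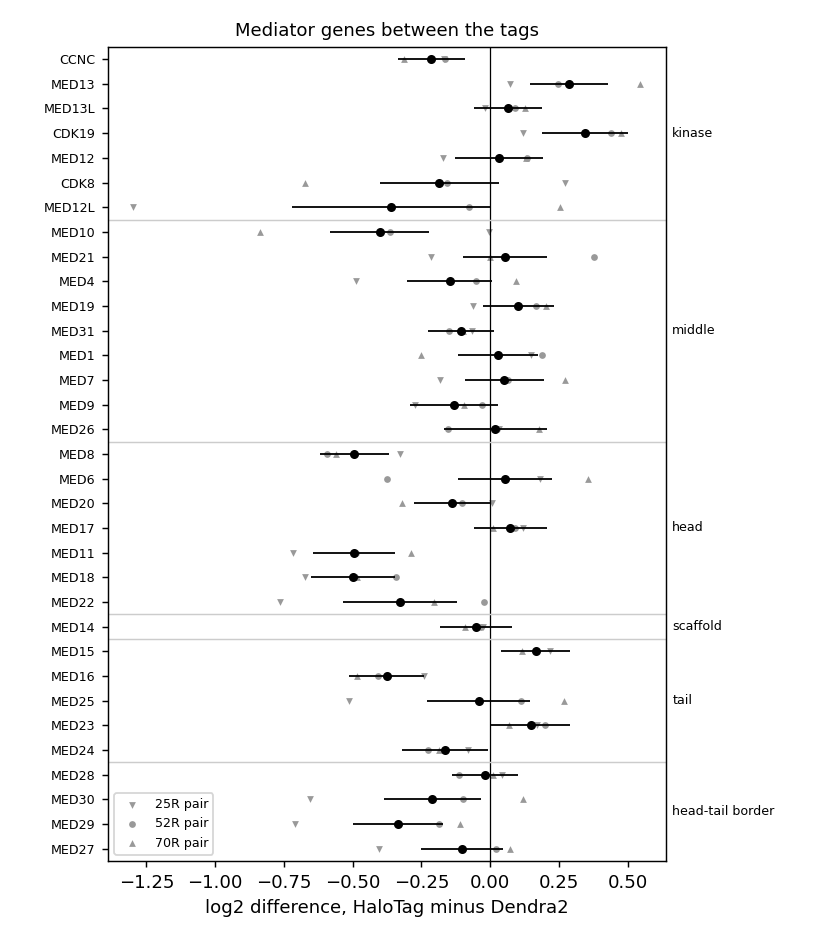
Log2 difference of each Mediator gene, HaloTag minus Dendra2 (black points, edgeR estimate with its SE), with the difference within each CTD length in grey. MED8, MED11, MED16 and MED18 lie below 0 at every CTD length, and CDK19 and MED13 above it.

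The windows around the annotated starts of MED18, MED11 and MED16, which had an unadjusted p under 0.05 between the tags, and of MED12, which had one between CTD lengths, are shown as examples of members below that level. MED8, which had the lowest adjusted p between the tags, has no entry in the table the windows came from. They are 300-base windows, from 250 bases before to 50 after the start, from RefSeq on GRCh38.p14, in which 25 of the 33 members had an entry. Capitals mark matches, on either strand, to 5 short words, which are CCAAT of the CCAAT box, GGGCGG of the GC box, CCGGAAG as a core that ETS factors bind, AAGATGGC as a core that YY1 binds, and TATAAA of the TATA box. No pair of these words overlapped in the windows shown.
MED18, chr1:28328790-28329089, plus strand: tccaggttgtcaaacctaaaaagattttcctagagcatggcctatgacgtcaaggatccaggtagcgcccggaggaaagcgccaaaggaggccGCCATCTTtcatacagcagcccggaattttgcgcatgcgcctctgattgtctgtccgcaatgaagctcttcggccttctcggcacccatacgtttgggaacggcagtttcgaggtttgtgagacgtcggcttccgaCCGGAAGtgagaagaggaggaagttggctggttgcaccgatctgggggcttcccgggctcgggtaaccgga
MED11, chr17:4731178-4731477, plus strand: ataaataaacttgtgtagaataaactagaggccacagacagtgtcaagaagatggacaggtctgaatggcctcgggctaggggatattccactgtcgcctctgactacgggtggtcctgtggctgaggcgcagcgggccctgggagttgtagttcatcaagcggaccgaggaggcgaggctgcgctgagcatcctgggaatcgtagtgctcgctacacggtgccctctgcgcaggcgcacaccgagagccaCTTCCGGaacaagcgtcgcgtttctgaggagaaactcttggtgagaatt
MED16, chr19:893138-893437, minus strand: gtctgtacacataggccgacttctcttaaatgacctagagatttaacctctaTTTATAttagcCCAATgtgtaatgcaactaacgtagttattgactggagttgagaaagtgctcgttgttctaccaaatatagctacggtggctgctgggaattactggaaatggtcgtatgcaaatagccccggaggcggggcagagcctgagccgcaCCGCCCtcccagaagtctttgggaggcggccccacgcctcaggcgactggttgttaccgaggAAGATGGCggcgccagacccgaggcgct
MED12, chrX:71118346-71118645, plus strand: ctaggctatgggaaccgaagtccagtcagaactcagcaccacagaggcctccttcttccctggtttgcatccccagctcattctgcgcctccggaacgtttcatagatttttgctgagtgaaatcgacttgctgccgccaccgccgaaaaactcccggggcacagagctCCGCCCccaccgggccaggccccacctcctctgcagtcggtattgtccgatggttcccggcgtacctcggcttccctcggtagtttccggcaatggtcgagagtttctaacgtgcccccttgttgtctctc
The MED18 window held the ETS and YY1 words, that of MED11 the ETS word, that of MED16 the CCAAT, GC box, TATA and YY1 words, and that of MED12 the GC box, so no word was present in all 4. Over the 25 member windows, 5 held the YY1 word (20%, against 2.89% of all 35116 windows), 7 the ETS word (28% against 10.3%), 15 the GC box (60% against 45.0%) and 10 the CCAAT word (40% against 34.6%). The TATA word was in 2 (8% against 11.5%). The YY1 word was in the windows of MED1, MED16, MED18, MED25 and MED29. All windows include those of non-coding genes, and the median GC content was 58% in members and 58.7% over all, with a median of 21 and 14 CG dinucleotides.

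Against the normal CTD of 52 repeats, cells with 25 repeats showed no Mediator gene past the test. With edgeR 0 of 33 members had an adjusted p under 0.05, where 0.0443% of genes did, 8 of 18069, and DESeq2 also called 0 members, against 2.71% of genes. A single member, MED12, had an unadjusted p under 0.05, 3.03% against 12.7% of all genes. MED12, at chrX:71118543-71144103 on the plus strand, encodes the subunit that activates the kinase of the module. Its level was 6.66, 11.8 and 11.2 CPM in HaloTag libraries with 25, 52 and 70 repeats and 7.50, 10.8 and 10.2 CPM in Dendra2 libraries. Both libraries with 25 repeats lay below all 4 others. The log2 difference between 25 and 52 repeats was -0.68 ± 0.20 (SE; edgeR, adjusted p = 0.282), -0.83 within HaloTag and -0.52 within Dendra2.

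Other members fell short of that size. MED4, which with MED7 and MED21 belongs to the core of the middle module, had 37.05, 55.0 and 56.0 CPM in HaloTag libraries and 51.9, 57.0 and 52.5 CPM in Dendra2 libraries with 25, 52 and 70 repeats. Its log2 difference between 25 and 52 repeats was -0.34 ± 0.19 (SE; edgeR, adjusted p = 0.489), and the low value came mainly from the HaloTag library. MED27, MED11 and CDK19 had log2 differences of -0.26, -0.25 and -0.25 (SE 0.18, 0.18 and 0.19). MED14 was lower at 25 than at 52 repeats under either tag, by log2 differences of -0.21 in HaloTag and -0.22 in Dendra2 cells, with a fitted value of -0.22 ± 0.16 (SE; edgeR, adjusted p = 0.598). In the positive direction MED1, the middle subunit that nuclear receptors bind, had 43.97, 39.05 and 33.54 CPM in HaloTag libraries and 39.7, 34.3 and 40.0 CPM in Dendra2 libraries, and its difference of 0.19 ± 0.18 on the log2 scale (SE) was within its error. MED28, MED10, MED16 and MED7 had log2 differences of 0.18, 0.17, 0.15 and 0.14 (SE 0.15, 0.22, 0.16 and 0.18). Groups did not overlap in 12 of 33 members, 36.4% against 38.7% of all genes, which is close to the background. The median log2 difference was -0.05 over members and 0.01 over all genes.

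Cells with 70 repeats against 52 also showed 0 of 33 members past the test, where the test called 0% of genes, and 0 members had an unadjusted p under 0.05 against 4.65% of genes. DESeq2 called 0 members and 0.371% of genes. MED30, a metazoan subunit at the border of head and tail, had 30.9, 40.3 and 59.8 CPM in HaloTag libraries and 48.7, 43.2 and 55.0 CPM in Dendra2 libraries with 25, 52 and 70 repeats. It was highest at 70 repeats under either tag, with a log2 difference from 52 repeats of 0.47 ± 0.21 (SE; edgeR, adjusted p = 0.965). MED10 followed with 0.46 ± 0.22 (SE; edgeR, adjusted p = 0.965), which was 0.21 within HaloTag and 0.68 within Dendra2. MED21, MED27 and MED11 had log2 differences of 0.26, 0.25 and 0.16 (SE 0.19, 0.18 and 0.18). MED13 had the most negative value among members of at least 10 CPM, -0.27 ± 0.17 (SE), before MED14 at -0.18 ± 0.16, MED23 at -0.08 ± 0.18, MED8 at -0.06 ± 0.15 and MED6 at -0.06 ± 0.21.

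From 52 to 70 repeats, 17 of 33 members were higher at 70 repeats under either tag, 51.5% against 27.2% of all genes, and 10 were lower under either tag, 30.3% against 29.1%. Either count includes near ties. CCNC rose from 47.46 to 47.70 CPM in HaloTag libraries, and MED16 fell from 24.26 to 23.97 CPM in Dendra2 libraries. The shares of all genes use the same rule, and 0 members had an unadjusted p under 0.05 (edgeR). The median log2 difference of 70 against 52 repeats was 0.05 over members and -0.01 over all genes. All 4 genes at the border of head and tail, MED27, MED28, MED29 and MED30, were higher at 70 repeats in both tags, with a median of 0.20. Those genes summed to 140.4, 153.3 and 190.9 CPM in HaloTag libraries with 25, 52 and 70 repeats and to 177.6, 164.0 and 186.4 CPM in Dendra2 libraries. Summed over all 33 members, the level was 1012, 1031 and 1100 CPM in HaloTag libraries and 1109, 1112 and 1211 CPM in Dendra2 libraries. Without MED10 the sums were 874.1, 921.7 and 973.5 CPM in HaloTag libraries and 970.4, 971.5 and 985.5 CPM in Dendra2 libraries, so that in Dendra2 cells most of the gain at 70 repeats was the level of MED10.

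Set against 25 repeats, cells with 70 repeats again showed 0 of 33 members past the test (edgeR, 0% of genes; DESeq2, 0 members and 2.48% of genes). At an unadjusted p under 0.05 there were 3 members, all higher at 70 repeats, 9.09% against 6.15% of genes in that direction. They were MED12 with a log2 difference of 0.59 ± 0.20 (SE; edgeR, adjusted p = 0.340), MED27 with 0.51 ± 0.18 (SE; edgeR, adjusted p = 0.359) and MED30 with 0.55 ± 0.21 (SE; edgeR, adjusted p = 0.381). MED27, at the border of head and tail, had 21.8, 30.4 and 36.7 CPM in HaloTag libraries and 28.8, 30.0 and 34.9 CPM in Dendra2 libraries with 25, 52 and 70 repeats. For MED27 and MED30 the difference was larger within HaloTag, at log2 values of 0.75 and 0.95, than within Dendra2, at 0.28 and 0.18, and whether the tags differ was not tested. MED11, MED4 and MED10 had fitted differences of 0.41, 0.30 and 0.29 on the log2 scale (SE 0.18, 0.19 and 0.22). The most negative values at 70 against 25 repeats among members of at least 10 CPM were those of MED16, MED1, MED13, MED6 and MED28, at log2 differences of -0.20, -0.18, -0.12, -0.08 and -0.05 (SE 0.17, 0.18, 0.17, 0.21 and 0.15).

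Across the whole series of lengths, the levels of MED11, MED15, MED27 and MED31 stood in the order 25, 52, 70 repeats from low to high under either tag, 4 of 33 members or 12.1% against 4.58% of all genes. MED16 was the 1 member in the opposite order under either tag, 3.03% against 5.12%. MED31, a middle subunit, had 40.4, 41.9 and 43.8 CPM in HaloTag libraries and 42.3, 46.5 and 46.8 CPM in Dendra2 libraries, so its levels lay close together. Each of the 4, and MED16, had a step between neighbouring lengths where the counting limits (Poisson, 95%) overlapped. In Dendra2 libraries those of MED11 were 20.8 to 23.4 CPM at 52 repeats and 21.7 to 24.3 CPM at 70. The shares of all genes include such steps too. Groups of 70 and 25 repeats did not overlap in 9 members, 27.3% against 33.5% of genes. With 2 libraries per length, 1 of each tag, the CTD comparisons have little replication.

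**Figure D3:**
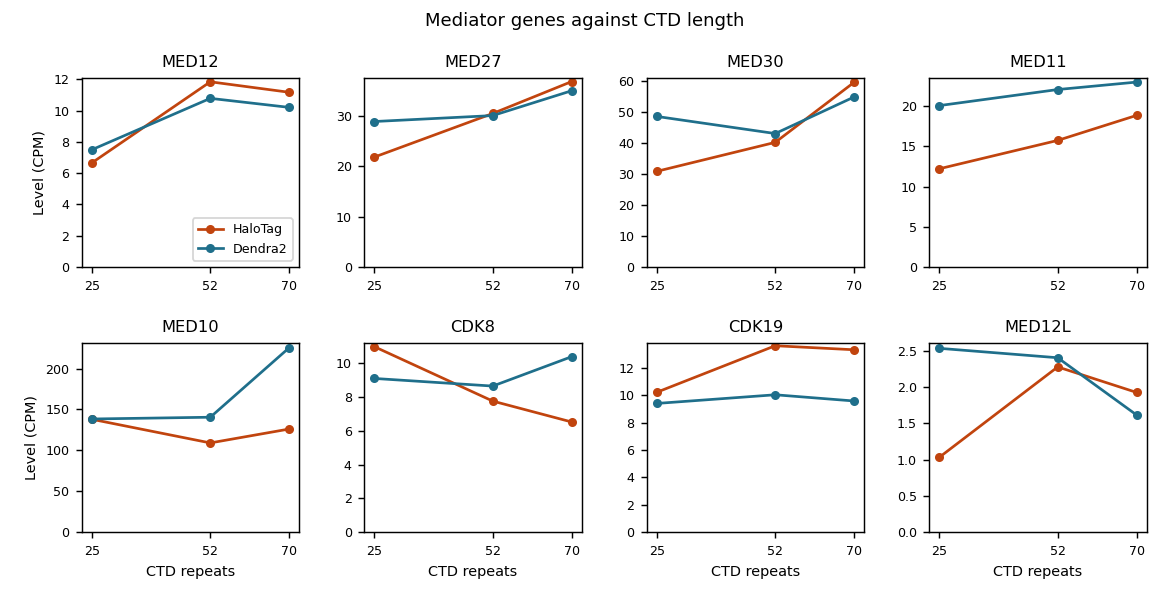
Level in CPM of 8 Mediator genes against the number of CTD repeats, with 1 line for each tag and 1 library per point. MED12 is lowest at 25 repeats under both tags, MED27 and MED11 are ordered by length under both, and CDK8 and MED12L differ between 70 and 25 repeats with opposite sign in the tags.

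Within the kinase module the paralogues did not keep constant proportions. CDK8, the cyclin-dependent kinase of the module, had 11.0, 7.75 and 6.51 CPM in HaloTag libraries with 25, 52 and 70 repeats and 9.08, 8.63 and 10.4 CPM in Dendra2 libraries. CDK19 exceeded CDK8 by a ratio of UMIs of 1.76 (95% exact binomial interval 1.56 to 1.98) in the HaloTag library with 52 repeats and of 2.05 (1.80 to 2.33) in that with 70 repeats, but not in that with 25 repeats, at 0.932 (0.833 to 1.04). In Dendra2 libraries the ratio was 1.04, 1.16 and 0.924, and only at 52 repeats did its interval, 1.02 to 1.32, lie above 1. These intervals cover counting error only, and in the fits over libraries CDK8 had a log2 difference of -0.18 ± 0.22 between the tags (SE; edgeR, adjusted p = 0.667) and of 0.31 ± 0.26, 0.03 ± 0.26 and -0.28 ± 0.26 for 25 against 52, 70 against 52 and 70 against 25 repeats.

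MED12 exceeded MED12L, its less abundant paralogue, by ratios of 6.46, 5.20 and 5.80 in HaloTag libraries with 25, 52 and 70 repeats and of 2.96, 4.49 and 6.33 in Dendra2 libraries. MED12L itself had 1.03, 2.28 and 1.92 CPM in HaloTag libraries and 2.53, 2.40 and 1.61 CPM in Dendra2 libraries, from 61 to 129 UMIs per library. Its log2 differences were -0.36 ± 0.36 between the tags, -0.46 ± 0.44 for 25 against 52 repeats, -0.38 ± 0.43 for 70 against 52 and 0.08 ± 0.44 for 70 against 25 (SE), all within about their errors. MED13L had 35.4, 39.6 and 39.1 CPM in HaloTag libraries and 35.9, 37.2 and 35.8 CPM in Dendra2 libraries, the most even member of all. The ratio of MED13 to MED13L was 1.38, 1.45 and 1.35 in HaloTag libraries and 1.29, 1.30 and 1.009 in Dendra2 libraries, where the interval at 70 repeats, 0.947 to 1.08, included 1. Cyclin C, encoded by CCNC and shared by the CDK8 and CDK19 forms of the module, had 51.5, 47.5 and 47.7 CPM in HaloTag libraries and 57.9, 53.1 and 59.2 CPM in Dendra2 libraries, with a log2 difference between tags of -0.21 ± 0.12 (SE; edgeR, adjusted p = 0.374).

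Transcription of single genes comes in bursts, and the authors' deposited tables give for each gene and library a mean, a burst frequency K in its own unit, and limits for both. From these a burst size was computed as the mean divided by K. The authors' means were 0.990 to 1.009 times the mean UMIs per cell in the matrices, so they were not scaled for depth. In the authors' deposited table the limits of K were less than 5-fold apart in all 6 libraries for 16 members, with means between 0.364 and 4.45 UMIs per cell. For these members K lay between 1.83 for MED1 and 7.38 for MED28. The other 17 members, including MED11, MED12, MED14, MED16, MED18, CDK8 and CDK19, had limits at least 25.2-fold and up to 1343-fold apart in 1 library or more, so K is poorly fixed for several of the genes that differed most in level.

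**Figure D4:**
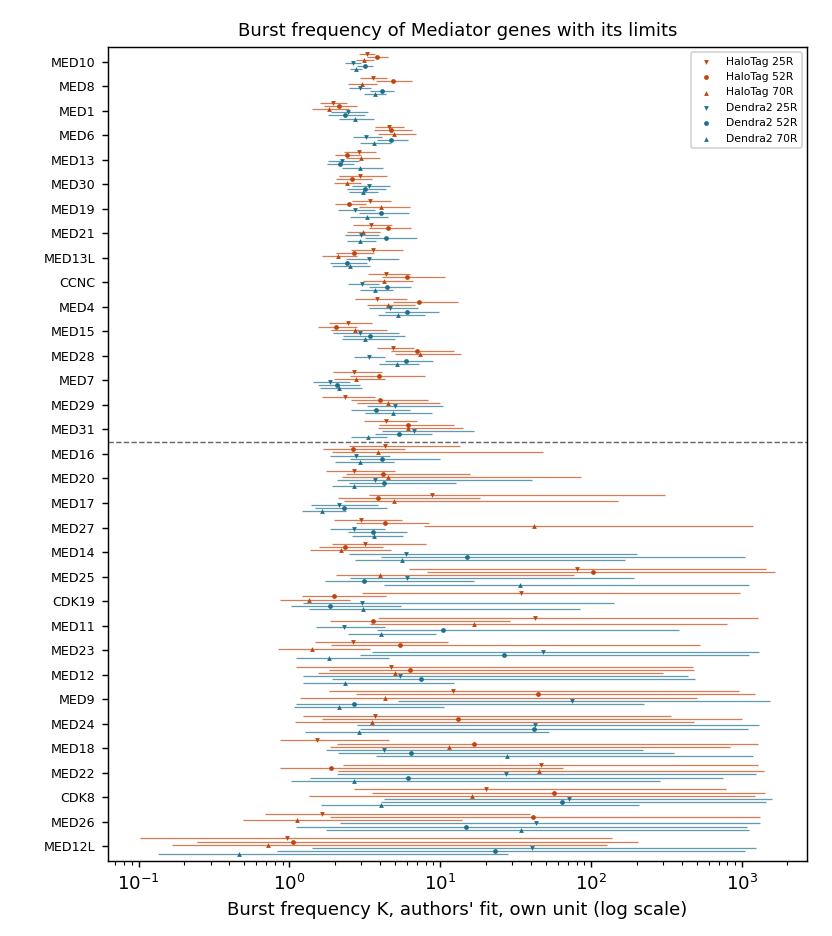
Burst frequency K from the authors' deposited tables (points) with its lower and upper limits (lines) on a log axis, for 33 Mediator genes in 6 libraries. The 16 genes above the dashed line have limits less than 5-fold apart in every library, and the 17 below it do not.

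In a limma fit over 36541 genes, 0 of 33 members passed for burst frequency or burst size between tags or CTD lengths, in 8 tests that each called 0% of genes. Only 21166 of these genes had a count in every library. The others also enter the variance shared between genes and the shares of genes given next, so those shares are a weak background. At an unadjusted p under 0.05 there were 2 members for frequency between the tags, MED14 and MED17, 6.06% against 5.16% of genes, and 4 for size, MED7, MED8, MED17 and CCNC, 12.1% against 6.31%. Between CTD lengths MED18 was the single member, for frequency at 70 against 25 repeats, 3.03% against 5.46%. Among members of at least 10 CPM, the largest fitted differences in frequency between the tags were -0.69, -0.49 and -0.14 on the log10 scale for MED23, MED14 and MED18 and 0.57, 0.47 and 0.44 for MED25, MED11 and MED17, all of them genes with wide limits of K. Below 10 CPM the values of MED12L and MED26 were more negative, at -0.93 and -0.82 on the log10 scale. For burst size the largest at 10 CPM or more were -0.72, -0.68 and -0.52 on the log10 scale for MED11, MED25 and MED27 and 0.64, 0.38 and 0.08 for MED23, MED14 and MED15, and below 10 CPM the values of MED26 and MED12L were 0.73 and 0.72. Of these genes, only MED15 had limits of K less than 5-fold apart in every library. Because size is the mean divided by K, an error in K enters both measures with opposite sign. The differences in frequency and size of a gene are thus not separate results.

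Restricting the fit to the 3188 genes whose mean reached 0.5 UMIs per cell in each library left 11 members, and there burst size was lower in HaloTag cells for MED10, MED8 and CCNC. That is 3 of 11, or 27.3% against 17% of genes. MED10 had burst sizes of 0.721, 0.439 and 0.479 UMIs per cell per unit of K in HaloTag libraries with 25, 52 and 70 repeats and of 0.842, 0.831 and 1.62 in Dendra2 libraries, computed from the authors' deposited table, and the groups did not overlap. The log10 difference was -0.29 ± 0.08 (SE; limma, adjusted p = 0.00782). MED8 had burst sizes of 0.340, 0.220 and 0.264 in HaloTag libraries and 0.490, 0.478 and 0.531 in Dendra2 libraries, a log10 difference of -0.27 ± 0.09 (SE; limma, adjusted p = 0.0231). CCNC had burst sizes of 0.200, 0.121 and 0.133 in HaloTag libraries and 0.306, 0.223 and 0.317 in Dendra2 libraries, a log10 difference of -0.28 ± 0.10 (SE; limma, adjusted p = 0.0328).

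Burst size of all 11 members lay below 0 in that comparison, with a median log10 difference of -0.17, and the median over the 3188 genes was -0.13. Median depth per cell was 13567 and 10812 UMIs in HaloTag libraries with 52 and 70 repeats, below the 18256 and 18739 UMIs of the Dendra2 libraries, but at 25 repeats it was 16020 UMIs in HaloTag and 15770 in Dendra2 cells, and its part in the result was not tested. With each library centred on its median, 0 of 11 members passed (limma, lowest adjusted p = 0.0847), against 7.59% of genes, and 6 of 11 lay below 0. Frequency showed 0 of 11 members before centring, against 6.93% of genes, and 0 after it, against 5.58%, when the lowest adjusted p of a member (limma) was 0.0507, for MED28. MED28 had K of 4.86, 7.04 and 7.38 in HaloTag libraries and 3.35, 5.90 and 5.14 in Dendra2 libraries in the authors' deposited table, higher under HaloTag at each length, with overlapping groups.

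Burst frequency in the same 11 members was also compared between CTD lengths. At 25 against 52 repeats 0 of 11 passed (limma, lowest adjusted p = 0.101), against 1.44% of genes, and 5 had an unadjusted p under 0.05, 45.5% against 10.1% of genes. They were MED4, MED8, MED21, MED28 and CCNC, with log10 differences of -0.20, -0.14, -0.14, -0.20 and -0.15 (SE 0.07, 0.07, 0.06, 0.07 and 0.07). The median log10 difference was -0.09 over the 11 members and also negative, at -0.04, over the 3188 genes. MED4 had K of 3.81, 7.25 and 4.48 in HaloTag libraries with 25, 52 and 70 repeats and 4.65, 6.03 and 5.22 in Dendra2 libraries, in the authors' deposited table. After centring on the library median the count was again 5 of 11, against 11.1% of genes, with MED13, at a positive log10 difference of 0.10 ± 0.04 (SE), in place of MED8. At 70 against 52 repeats MED4 and MED21 had an unadjusted p under 0.05 for frequency, 18.2% against 5.18% of genes, and at 70 against 25 repeats MED28 did, 9.09% against 6.12%. For burst size there were 1, MED28, at 25 against 52 repeats, 9.09% against 7.9% of genes, 1, MED13, at 70 against 52, 9.09% against 2.45%, and 0 at 70 against 25, against 5.58%. The genes named depend on centring. After it, 70 against 52 repeats gave MED13 and MED21 for frequency, 18.2% against 5.18%. For size it gave MED10, MED13 and MED21, 27.3% against 7.06%. Centred size gave MED28 at 25 against 52, 9.09% against 16%, and MED30 at 70 against 25, 9.09% against 13.1%. After adjustment over the 3188 genes, none of these CTD comparisons called a member in either measure (limma).

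Genes that work with Mediator were read beside it, from a list of 28 partners that were all tested. None had an adjusted p under 0.05 in any of the 4 comparisons (edgeR). Between the tags 2 were higher and 6 lower in HaloTag libraries at an unadjusted p under 0.05, in a comparison with 10.4% of all genes higher and 9.2% lower at that level. Of the 12 RNA polymerase II subunits tested, 5 were among the 6 lower and 1, POLR2B, at a log2 difference of 0.32 ± 0.13 (SE; edgeR, adjusted p = 0.237), among the 2 higher. POLR2C had 45.0, 35.6 and 36.3 CPM in HaloTag libraries and 53.5, 54.3 and 52.3 CPM in Dendra2 libraries, a log2 difference of -0.46 ± 0.13 (SE; edgeR, adjusted p = 0.154), close in size to those of MED8, MED11 and MED18. CCNT1, the cyclin of the elongation kinase P-TEFb, was the strongest in the other direction, with a log2 difference of 0.48 ± 0.15 (SE; edgeR, adjusted p = 0.178). At 25 against 52 repeats SMC1A and STAG1, subunits of cohesin, had log2 differences of -0.57 ± 0.16 and -0.55 ± 0.19 (SE; edgeR, adjusted p = 0.268 and 0.324). They were the only partners with an unadjusted p under 0.05 there, 2 of 28, against 12.7% of all genes. SMC1A had 79.7, 132.9 and 111.3 CPM in HaloTag libraries and 89.0, 117.6 and 113.4 CPM in Dendra2 libraries with 25, 52 and 70 repeats, lowest at 25 repeats under either tag, as was MED12. In 19.3% of all genes both libraries with 25 repeats lay below both with 52, a wider rule that leaves out 70 repeats. The share of genes lowest at 25 repeats under either tag was not computed. At 70 against 52 repeats 1 partner, ELL2, had an unadjusted p under 0.05, against 4.65% of genes. At 70 against 25 there were 2, SMC1A and NIPBL, against 12.2%, and all of these were higher at 70 repeats.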

How the data were processed

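Single-cell RNA was measured in 6 libraries, 1 for each of 2 tags and 3 CTD lengths. The 9 labelled samples include 2 sequencing runs of each HaloTag library, merged in the files. The deposited UMI counts per gene and cell are the authors' and name Cell Ranger 6.1.2 in the file headers, from libraries of a 3′ single-cell kit, per the labels' protocols, and the submitters' processing notes name bcl2fastq and GRCh38. The authors' kinetic tables, used as deposited, hold a mean, a K and a CV per gene with limits, treated here as scores in their own unit, from a fit whose tool has no stated version. Their limits are the authors' and were not recomputed.

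A cell was kept with 500 genes or more and a mitochondrial share of no more than 20%, and 2.01% to 3.03% of barcodes were dropped. No doublet caller was run. Counts were summed per library, without the tag features, because cells are not replicates. Genes were filtered with filterByExpr by tag, scaled with TMM and fitted with edgeR 4.0.16 (quasi-likelihood, robust) for tag plus CTD length in R 4.3.3. With 1 library per genotype, error came from what the additive terms leave over, at 2 residual degrees of freedom. To these edgeR added a prior drawn from all genes, with a median of 4.54 degrees of freedom. The p-values thus rest on these libraries and on variance shared between genes, and do not measure the spread between replicate libraries. The p-values were adjusted by Benjamini-Hochberg over all genes, with a threshold of 0.05. DESeq2 1.42.0 was the other test. K, and mean over K, were fitted on the log10 scale with limma 3.58.1 and a variance trend. In the fit to 3188 genes its prior for burst size had infinitely many degrees of freedom, so all genes of a given average log10 burst size shared 1 variance. The edgeR and limma fits were checked on simulated data for the comparison of the tags. The changes put into those data were larger than any fitted here for a member between the tags. The noise for limma was not drawn from the kinetic values. The check therefore does not show how often differences of the size seen here would be called. DESeq2, the CTD comparisons and the fit to 3188 genes were not checked in this way. Exact binomial intervals are at 95%. Gene coordinates are those of GENCODE v44 on GRCh38, matched by gene ID.

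Named genes were the members past the threshold, or otherwise up to 5 per direction by size among those of at least 10 CPM, the 3 paralogue pairs and MED14. For bursting up to 3 per direction were named, between the tags. Others were chosen after their values were seen. The members and lists were chosen with earlier results of these data known. Tables were made with pandas 2.3.3 and scipy 1.17.1, and plots with matplotlib 3.10.9, in Python 3.11.15.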

Additional observations from a re-analysis of the deposited data

Results flagged for a closer look

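MED12L differed in sign between the tags when 70 repeats were set against 25, though it was lower at 70 than at 52 repeats under either tag. Between 70 and 25 repeats its log2 difference was 0.90 in HaloTag cells, from 107 UMIs at 70 repeats and 61 at 25, and -0.65 in Dendra2 cells, from 86 UMIs at 70 repeats and 126 at 25. It drew attention because both differences exceeded 1.5-fold with opposite sign. The difference between the tags was not tested, since each value rests on 1 library per length.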

How the results depend on the processing

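No paired analysis was possible because each genotype has 1 library and the labels give no replicate number shared between groups. The additive fit itself compares the tags within each CTD length and the lengths within each tag. The count of members past the test was 0 in every comparison with edgeR under library totals, no filter on low counts, all barcodes, priors that were not robust (added after seeing the data) and each library left out in turn. It was 1 for the tag with DESeq2 (MED8), and 3 for burst size between the tags in genes with a mean of at least 0.5 (MED8, MED10 and CCNC). It was 0 in the other burst settings run, which were centring, no variance trend, genes with a count in every library (added) and the centred subset (added).

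Of the 61 differences in level, 21 changed sign under a setting, none of them called. MED14 between the tags was 0.036 with library totals, and -0.09 to -0.03 with a library left out. With 1 library left out, the log2 difference between the tags ranged from -0.44 to 0.057 for CDK8, -0.026 to 0.11 for MED12 and -0.68 to 0.064 for MED12L. For 25 against 52 repeats it ranged from -0.017 to 0.30 for MED7, -0.16 to 0.47 for MED10, -0.072 to 0.65 for CDK8 and -1.20 to 0.14 for MED12L. For 70 against 52 repeats it ranged from -0.38 to 0.28 for MED6, -0.13 to 0.027 for MED8, -0.36 to 0.37 for CDK8, -0.15 to 0.047 for CDK19, -0.90 to 0.031 for MED12L and -0.082 to 0.010 for MED13L. For 70 against 25 repeats it ranged from -0.40 to 0.024 for MED1, -0.31 to 0.14 for MED6, -0.039 to 0.62 for MED10, -0.31 to 0.073 for MED13, -0.11 to 0.020 for MED28, -0.65 to 0.086 for CDK8 and -0.55 to 0.80 for MED12L. Of 15 burst differences, 1 changed sign, the burst frequency of MED18, from -0.41 to 0.018 on the log10 scale. The median log2 difference of the 33 members between the tags was -0.10 and ranged from -0.13 to -0.032 with 1 library left out, with -0.032 without HaloTag-RPB1-25R, -0.034 without Dendra2-RPB1-25R and -0.017 with library totals. For 70 against 52 repeats the median was 0.05 and ranged from 0.024 to 0.063, with 0.024 without HaloTag-RPB1-70R and 0.027 without Dendra2-RPB1-52R. For 25 against 52 repeats it ranged from -0.079 to -0.016, the value without HaloTag-RPB1-52R, and was -0.10 with library totals. For 70 against 25 repeats it ranged from 0.034, without HaloTag-RPB1-25R, to 0.11. The cause was not tested.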
